A study of Mus musculus with 2 samples.

Results

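The nuclear genes that copy, package and transcribe the mitochondrial genome were described in the heart of mice that lack Med1 in cardiomyocytes. Med1 is a subunit of Mediator, the complex that links DNA-bound transcription factors to RNA polymerase II. The group held 10 of the 22882 gene symbols in the deposited expression tables, chosen by their function in this pathway: Tfam, Tfb1m, Tfb2m, Polrmt, Polg, Polg2, Ssbp1, Nrf1, Gabpa and Tk2. Of these, 9 passed the filter on low values.

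Heart RNA came from Med1fl/fl mice, which carry a loxP-flanked Med1 allele and served as controls, and from csMed1-/- mice, which carry the same allele and an α-MyHC-Cre transgene. The α-myosin heavy chain promoter drives Cre in cardiomyocytes, so the other cells of the heart keep Med1. All mice were on the C57BL6/J background, 23 days old and of mixed sex, and received no treatment. RNA of 5 hearts was pooled for each genotype and each pool gave 1 library, so there were no replicates, no value has an error and no difference could be tested. Expression was deposited as FPKM, the number of fragments scaled to transcript length and to the size of the library.

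Mitochondrial DNA is transcribed by its own single-subunit RNA polymerase, which needs one factor that bends the promoter DNA and another that opens it. It is replicated by DNA polymerase gamma together with a helicase and a single-stranded DNA-binding protein, from deoxynucleotides that the mitochondrion partly salvages itself. All of these proteins are encoded in the nucleus, and nuclear factors such as NRF1 and GABP bind the promoters of many of their genes. Heart muscle depends on this machinery because most of its ATP comes from oxidative phosphorylation.

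The promoters of the 10 genes were read from RefSeq (build GRCm38.p6) over 250 bases before and 50 bases after each start, and all 10 genes had an entry. They were searched on both strands for short cores of factors known in this pathway. The GABP/ETS core CCGGAAG, which reads CTTCCGG from the opposite strand, stood in the promoters of 7 of the 10 genes. It stood in 8.86% of all 32851 promoters and in 20.0% of the 8220 genes of the expression comparison that had a promoter entry. The 7 stretches below carry the core in capitals and are shown because the genes that hold it lie at both ends of the range of expression ratios, from Tfam to Tk2. Each is written 5′ to 3′ on the strand of its gene.
Tfam: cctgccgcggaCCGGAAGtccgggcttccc
Polrmt: ccctaagagcgCTTCCGGcagtcgcagaac
Polg: gaggacctcacCCGGAAGtccctctgcacc
Polg2: cgggtgacgctCTTCCGGgggcgtggtcta
Ssbp1: ggctccgtgcgCCGGAAGcgagccgctggc
Gabpa: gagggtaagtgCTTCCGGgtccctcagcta
Tk2: gcggggctccaggacgcaCCGGAAGgaagt
These stretches lie, in the same order, at chr10:71238073-71238102 (minus strand), chr10:79746606-79746635 (minus), chr7:79466293-79466322 (minus), chr11:106779548-106779577 (minus), chr6:40471410-40471439 (plus), chr16:84835020-84835049 (plus) and chr8:104248559-104248588 (minus). Counted from the RefSeq start, with -1 as the base just before it, the core began at positions -47, -43, -38, -29, -47, -93 and -12, in the same order. The stretches of Tfam, Polg, Ssbp1 and Gabpa lie inside the gene span of the GENCODE annotation, whose outermost start is upstream of the RefSeq start used here. The promoters of Tfb1m, Tfb2m and Nrf1 held no such core. The NRF1 core GCGCANGCG was found in Tfb2m and Polrmt, against 15.4% of the compared genes. The Sp1 box GGGCGG was found in 7 of the 10 genes, against 69.8%, and the YY1 core AAGATGGC in Gabpa alone, against 5.45%. No promoter of the group held the half-site AAGGTCA of the estrogen-related receptors, which stood in 3.98% of the compared genes. A match of letters is not a shown binding site, and a missing match says nothing about a factor.

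**Figure D1:**
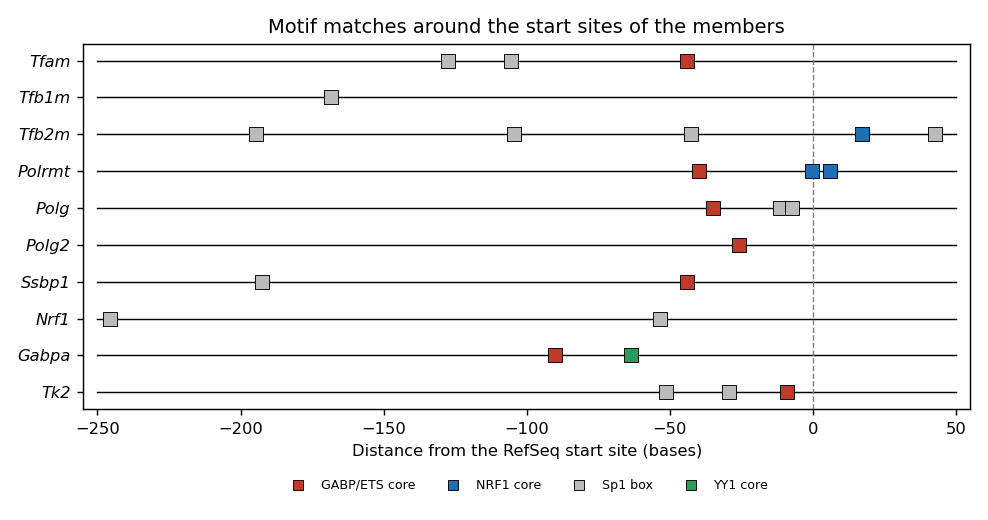
Position of each searched core in the promoters of the 10 genes, in bases from the RefSeq start (horizontal axis), with 1 line per gene (Nrf1 has 2 promoter entries) and 1 colour per core. All 7 GABP/ETS cores lie between positions -93 and -6.

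Both libraries listed the same 23424 entries. Summed FPKM was 780366 in Med1fl/fl and 716365 in csMed1-/-, and 9965 and 9742 genes reached 1 FPKM. Med1 itself had 3.38 FPKM in Med1fl/fl and 0.412 in csMed1-/-, a ratio of 0.122, in the direction the labels give. Reads are not given, but low values of genes with a single annotated transcript moved in steps worth about 1 fragment, which put the csMed1-/- library at about 1.36 times the depth of Med1fl/fl if values were scaled to mapped fragments alone. Genes were compared when they were listed above 0 FPKM in both libraries and reached 1 FPKM in at least 1 of them, which left 10489. A change past 2-fold was the threshold for calling a gene lower or higher, and 18.0% of these genes were lower and 13.6% higher in csMed1-/- heart. The excess of lower genes depends on the scaling: with equal library totals, 1629 were lower and 1677 higher.

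Of the 9 compared members, 3 were lower and 1 was higher. Tfam, Tfb1m and Tfb2m were more than 2-fold lower in csMed1-/- (3 of 9, or 33.3%, beside 18.0% of all genes), Tk2 was more than 2-fold higher (1 of 9, or 11.1%, beside 13.6%), and 5 stayed within 2-fold. The ratio of csMed1-/- to Med1fl/fl was below 1 for 7 of the 9, and 53.2% of all genes were below 1. The median log2 ratio was -0.52 over the 9 members and -0.07 over all genes compared, where the middle 50% of genes lay between -0.72 and 0.55. The count of lower members depends on Tfb2m, at the threshold, and on Tfam, which entered through its Med1fl/fl value alone. It was 2 in 7 of 13 alternative treatments of the values. With 1 FPKM required in both libraries it was 2 of 8, beside 14.7% of all genes. With 1 library of each genotype and 9 genes, these counts describe the libraries and cannot be set against a replicate spread.

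**Figure D2:**
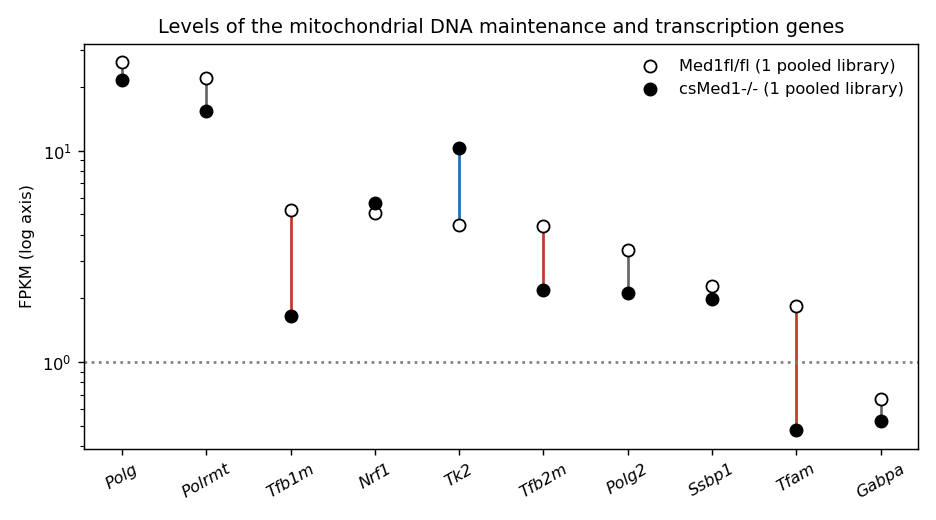
FPKM of the 10 genes in the Med1fl/fl and csMed1-/- libraries (log axis), 1 point per library and 1 library per genotype, so no error bars are drawn, and a dotted line at 1 FPKM. Tfam, Tfb1m and Tfb2m lie lower in csMed1-/- by 2-fold or more, Tk2 lies higher, and Polg and Polrmt stay the most abundant of the group in both.

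The lowest ratios of the group belonged to Tfam, Tfb1m and Tfb2m, which act in mitochondrial transcription and in the maturation of its ribosomal RNA. Tfam, an HMG-box protein that packages mitochondrial DNA into nucleoids and bends its promoters, had 1.85 FPKM in Med1fl/fl and 0.475 FPKM in csMed1-/-. That is 3.90-fold lower, a log2 ratio of -1.96, and 5.37% of all compared genes had a lower ratio. Tfam was compared only because its Med1fl/fl value is above 1 FPKM, and a gene that enters this way must have a ratio below 1. Its level went from the 16.4th percentile of the compared genes in Med1fl/fl to the 2.29th in csMed1-/-. The gene lies on chromosome 10 at 71225464 to 71238280 (minus strand, GRCm38), with 3 annotated transcripts.

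Tfb2m, the factor that opens the promoter for the polymerase, had 4.41 FPKM in Med1fl/fl and 2.20 FPKM in csMed1-/-. The ratio was 0.499, which only just passed the threshold, and 7 of the 11 alternative treatments of the values put it inside 2-fold, the mildest at a log2 ratio of -0.76. Its value is also uncertain for another reason: 1187 of the 2449 bases of its transcript (48.5%) match the annotated gene Gm1818 at 95% identity or more, and Gm1818 is not listed in the tables. The counting could have shared reads between them.

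Tfb1m, the related methyltransferase that modifies the small mitochondrial ribosomal RNA, had 5.25 FPKM in Med1fl/fl and 1.65 FPKM in csMed1-/-. It was 3.17-fold lower, a log2 ratio of -1.67, and stayed more than 2-fold lower in every alternative that kept it. Tfb1m was the third most abundant of the 10 genes in Med1fl/fl and the eighth in csMed1-/-. The quotient of Tfb1m over Tfb2m was 1.19 in Med1fl/fl and 0.752 in csMed1-/-, so the order of the 2 paralogs was exchanged. From the fragment steps, the Tfb1m values rest on about 428 fragments in Med1fl/fl and 184 in csMed1-/-, and those of Tfb2m on about 628 and 428. These are estimates from the annotated length and say nothing about the spread between hearts.

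Polrmt, the polymerase that makes both the transcripts and the replication primers, differed less. It had 22.2 FPKM in Med1fl/fl and 15.5 FPKM in csMed1-/-, a ratio of 0.698 and within 2-fold. The quotient of Polrmt over Tfam, which does not depend on how the libraries were scaled, was 12.0 in Med1fl/fl and 32.6 in csMed1-/-, a 2.72-fold difference. The RNAs of the polymerase and the packaging factor thus stood in a different proportion in each library. The csMed1-/- quotient rests on a Tfam value of 0.475 FPKM, so it depends on the treatment of low values.

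Polg, Polg2 and Ssbp1, the replication genes of the group, were within 2-fold. Polg, the catalytic subunit of DNA polymerase gamma, was the most abundant member in both libraries, with 26.2 FPKM in Med1fl/fl and 21.6 FPKM in csMed1-/- (ratio 0.824). Polg2, the accessory subunit that keeps the enzyme on its template, had 3.38 FPKM in Med1fl/fl and 2.12 FPKM in csMed1-/- (ratio 0.628), and it passed the looser threshold of 1.5-fold. The quotient of Polg over Polg2 was 7.75 in Med1fl/fl and 10.2 in csMed1-/-. Ssbp1, which coats single-stranded mitochondrial DNA, had 2.29 FPKM in Med1fl/fl and 1.99 FPKM in csMed1-/-, a log2 ratio of -0.20 that turned to 0.06 when ratios were centred within bins of abundance. Polg kept its proportion to the replicative helicase Twnk, with a quotient of 1.91 in Med1fl/fl and 1.89 in csMed1-/-.

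Tk2, the mitochondrial kinase that salvages thymidine and deoxycytidine, went the other way. It had 4.47 FPKM in Med1fl/fl and 10.3 FPKM in csMed1-/-, 2.31-fold higher, with a log2 ratio of 1.21 and between 1.05 and 1.33 in every alternative. It was the fifth most abundant member in Med1fl/fl and the third in csMed1-/-. Dguok, the mitochondrial kinase for purine deoxynucleosides, had 31.5 FPKM in Med1fl/fl and 14.6 FPKM in csMed1-/-. The quotient of Tk2 over Dguok was therefore 0.142 in Med1fl/fl and 0.710 in csMed1-/-, a 5.01-fold difference between the libraries. Because Tk2 was called higher and Dguok lower, this quotient must differ more than either gene alone. Tk2 has no overlapping gene and no near-identical copy in the annotation, and lies on chromosome 8 at 104226685 to 104248558 (minus strand, GRCm38). Its proximal promoter, shown because it belongs to the only member that was higher, reads as follows on the strand of the gene, with the GABP/ETS core in capitals, at chr8:104248559-104248658.
Tk2 promoter: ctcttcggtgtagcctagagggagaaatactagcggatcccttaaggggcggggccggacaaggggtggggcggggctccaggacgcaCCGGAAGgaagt
That of Tfb2m, shown for contrast among the lower genes and without the core, lies at chr1:179546277-179546376 (minus strand).
Tfb2m promoter: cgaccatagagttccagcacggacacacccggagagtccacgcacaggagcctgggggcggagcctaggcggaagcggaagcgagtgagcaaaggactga
Both stretches are rich in G and C (64% of their bases each).

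The 2 nuclear regulators in the group differed little between the libraries. Nrf1, a transcription factor of many respiratory genes, had 5.07 FPKM in Med1fl/fl and 5.65 FPKM in csMed1-/- (ratio 1.11), with log2 ratios between 0.12 and 0.39 over the alternatives. Gabpa, the DNA-binding subunit of GABP, had 0.665 FPKM in Med1fl/fl and 0.527 FPKM in csMed1-/-. Gabpa was below 1 FPKM in both and so was not among the 9 compared genes. Its log2 ratio was -0.34 and 0.01 after centring within bins of abundance. The quotient of Nrf1 over Tfam was 2.74 in Med1fl/fl and 11.9 in csMed1-/-, and the latter rests on a Tfam value below 1 FPKM.

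**Figure D3:**
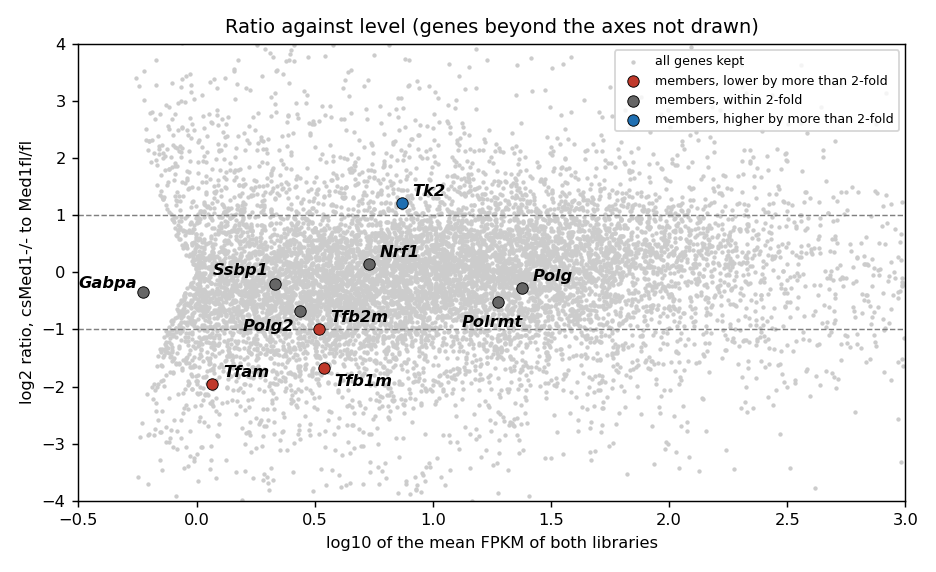
Log2 ratio of csMed1-/- to Med1fl/fl FPKM (vertical axis) against the log10 of the mean FPKM of both libraries (horizontal axis) for the compared genes within the axes, with the members named, Gabpa included although it was not compared, and lines at 2-fold. Tfam and Tfb1m lie well below the lower line, Tfb2m on it, and Tk2 above the upper line.

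The genes around the members can share reads with them. The libraries were directional, but whether strand was used in the counting is not given in the sources used here, so overlapping genes on opposite strands cannot be told apart. Tfb1m shares 142 bases of its transcript (10.1%) with Tiam2 on the opposite strand, and Tiam2 had 0.576 FPKM in Med1fl/fl and 1.36 FPKM in csMed1-/-, opposite in direction to Tfb1m. Gabpa shares 299 bases of its transcript with the opposite-strand gene Atp5j, a far more abundant transcript with 1359 FPKM in Med1fl/fl and 610 FPKM in csMed1-/-. Polg overlaps Fanci and Polg2 overlaps Milr1, and those neighbours stayed below 1 FPKM in both libraries. Of Ssbp1, 443 transcript bases (10.1%) match Gm12115. That share is taken over 4398 bases, the longest coding one of 4 annotated transcripts, and could be larger for a shorter one. The counting could have shared reads between the 2 genes, so the Ssbp1 values are uncertain for this reason as well.

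The members' partners were read from 5 lists of the same pathway. Of 73 genes found, 61 were compared, 26 were more than 2-fold lower (42.6%, beside 18.0% of all genes) and 2 more than 2-fold higher (3.28%, beside 13.6%). The median log2 ratio over the 61 was -0.67. Of the 26 lower genes, 4 (Mgme1, Top1mt, Fastkd1 and Ppargc1a) were compared only because their Med1fl/fl value reached 1 FPKM. Such genes must have a ratio below 1. With 1 FPKM required in both libraries, 22 of 55 were lower (beside 14.7% of all genes) and 2 higher (3.64%, beside 11.3%). These lists were made with earlier results known and were not tested.

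**Figure D4:**
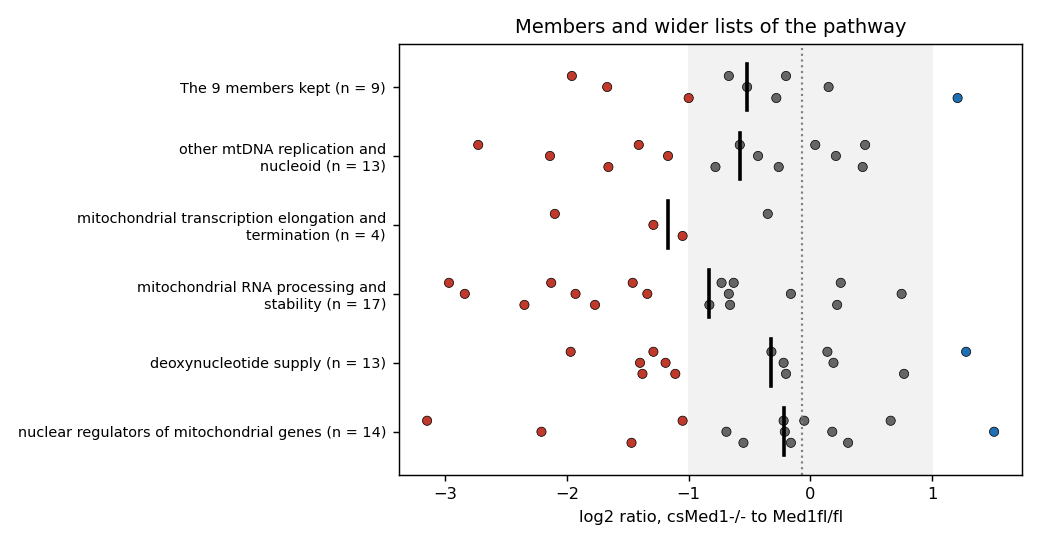
Log2 ratio of csMed1-/- to Med1fl/fl FPKM for each compared gene of the members and of the 5 wider lists, 1 point per gene (red lower, blue higher, grey within 2-fold), with the list median as a bar, the range within 2-fold shaded and the median of all genes as a dotted line. The list medians run from -1.17 for transcription elongation and termination to -0.21 for nuclear regulators.

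Of the 13 compared genes listed under mitochondrial DNA replication and the nucleoid, 5 were lower (38.5%, beside 18.0% of all genes). None was higher and 8 were within 2-fold. With 1 FPKM required in both libraries, 3 were lower. The nuclease Mgme1, which trims replication intermediates, had 2.72 FPKM in Med1fl/fl and 0.411 FPKM in csMed1-/- (log2 ratio -2.73). Slc25a4 is the ADP/ATP carrier of heart and stands on this list although it does not copy DNA. It had 9228 FPKM in Med1fl/fl and 2087 FPKM in csMed1-/- (log2 ratio -2.14). The mitochondrial topoisomerase Top1mt (-1.66), the nucleoid-associated ATPase Atad3a (-1.41) and the matrix protease subunit Clpx (-1.17) were the other lower genes. The replicative helicase Twnk stayed within 2-fold at -0.26, near Polg, and Fen1 had the highest ratio at 0.45.

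Transcription elongation and termination had 4 compared genes, of which 3 were lower (beside 18.0% of all genes). The count was 2 with a pseudocount of 1, with median centring and with equal library totals. It was 1 with 10 FPKM in either library, 5 with no filter and still 3 with 1 FPKM required in both. Tefm, the elongation factor that holds the polymerase on its template, had 6.46 FPKM in Med1fl/fl and 1.51 FPKM in csMed1-/- (log2 ratio -2.10). Mterf3 (-1.29) and Mrpl12 (-1.05) were also lower, and Mterf4 stayed within 2-fold at -0.35. Mterf2 was below 1 FPKM in both libraries, with 0.887 FPKM in Med1fl/fl and 0.0830 FPKM in csMed1-/-, and was not compared.

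Of 17 compared genes of mitochondrial RNA processing and stability, 8 were lower (47.1%, beside 18.0% of all genes), none higher and 9 within 2-fold. Fastkd1 had 7.78 FPKM in Med1fl/fl and 0.994 FPKM in csMed1-/- (log2 ratio -2.97). Lrpprc, which stabilises mitochondrial messenger RNA, had 19.5 FPKM in Med1fl/fl and 2.72 FPKM in csMed1-/- (log2 ratio -2.84), while its binding partner Slirp had 24.6 FPKM and 28.7 FPKM. Ptcd3, Grsf1, Ptcd2, Fastkd2, Supv3l1 and Fastk lay between -2.35 and -1.34. Rexo2 had the highest ratio of the list, at 0.75 within 2-fold.

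Deoxynucleotide supply had 13 compared genes, of which 6 were lower (46.2%, beside 18.0% of all genes). Of the others, 1 was higher (beside 13.6% of all genes) and 6 were within 2-fold. The lower genes were Nme4 (-1.97), the succinyl-CoA ligase subunits Suclg2 (-1.40), Suclg1 (-1.38) and Sucla2 (-1.19), the deoxynucleotide triphosphohydrolase Samhd1 (-1.29) and Dguok (-1.11). Abat was the higher one, with 1.25 FPKM in Med1fl/fl and 3.05 FPKM in csMed1-/-. Tk2, a member and so not on this list, was higher as Abat was, with log2 ratios of 1.21 and 1.28.

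Of 14 compared nuclear regulators, 4 were lower (28.6%, beside 18.0% of all genes). Of the others, 1 was higher (beside 13.6% of all genes) and 9 were within 2-fold. Perm1 had 192 FPKM in Med1fl/fl and 21.7 FPKM in csMed1-/- (log2 ratio -3.15). The coactivators Ppargc1a and Ppargc1b, which drive mitochondrial biogenesis with the factors they bind, had log2 ratios of -2.21 and -1.47, and their partner Esrra had -1.05. Esrrg was below 1 FPKM in both libraries (0.917 and 0.637). The proto-oncogene Myc was the higher gene, at 1.51. The partners of Gabpa in GABP, Gabpb1 and Gabpb2, stayed within 2-fold at -0.16 and -0.22. The 15 listed genes of mitochondrial DNA itself were not analysed here.

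These are RNAs of whole heart, so fewer cells of a type and less RNA per cell cannot be told apart. Of the 8 cardiomyocyte markers, 6 were above 0 in both libraries and all 6 had a ratio below 1, beside 53.2% of all compared genes. Of the 6, 3 were more than 2-fold lower, beside 18.0% of all compared genes. The summed level of the 6 was 51788 FPKM in Med1fl/fl and 20485 FPKM in csMed1-/-. The others, Actc1 and the joint entry of Myh6 and Myh7, are listed at 0 in Med1fl/fl and at 9189 FPKM and 647 FPKM in csMed1-/-. Cardiomyocytes use these genes, so the 0 may be a failed estimate and no difference is read from it. The summed fibroblast markers were 2.37 times as high in csMed1-/- (492 and 1168 FPKM), but 3 of the 7 had a ratio below 1 and the log2 ratios ran from -1.11 to 4.13. The smooth muscle sum was 1.69 times as high (604 and 1024 FPKM), with 2 of 4 below 1 and log2 ratios from -1.04 to 7.17. All 6 endothelial markers were below 1 too, beside 53.2% of all compared genes, and 3 were more than 2-fold lower, beside 18.0%. Their log2 ratios ran from -1.90 to -0.17 and their sum was 0.674 times as high. Of 6 macrophage and leukocyte markers 4 were below 1 and 2 above, with log2 ratios from -1.46 to 1.29 and a sum 0.795 times as high. All 3 erythroid entries were above 1 (sum 1.56 times as high). Of the 7 proliferation markers, 6 were above 1 and 4 more than 2-fold higher, beside 13.6% of all compared genes. The remaining 1 was more than 2-fold lower. Their log2 ratios ran from -1.02 to 2.44, with a median of 1.68. The sum was low and 1.39 times as high (17.9 and 24.9 FPKM). The part of these shifts in the values of Tfam, Tfb1m, Tfb2m and Tk2 was not tested.

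Low abundance and base composition moved with the ratios as well. Among all compared genes with a mean of 1 to 10 FPKM, 19.7% were lower and 11.6% higher, with a median log2 ratio of -0.20, and among those with a mean of 10 to 100 FPKM the shares were 13.8% and 13.7%, with a median of 0.07. Tfam, Tfb1m, Tfb2m, Tk2, Polg2, Ssbp1 and Nrf1 belong to the first range and Polg and Polrmt to the second. Of those in the first range, Polg2, Ssbp1 and Nrf1 were within 2-fold. The log2 ratio was weakly related to the GC content of the transcript across 10306 genes (Spearman's rho 0.21, over genes of the same 2 libraries, which are not replicates), from a median of -0.16 in the tenth of lowest GC content to 0.34 in that of highest. Ssbp1 has 41.0% GC, Gabpa 41.4%, Tfb2m 42.5%, Tfam 44.9% and Tfb1m 45.9%. Nrf1 has 51.1%, Tk2 52.0%, Polg 52.7%, Polg2 52.8% and Polrmt 60.9%. Ssbp1 and Gabpa, with the lowest GC content of the group, had log2 ratios of -0.20 and -0.34. Polg and Polg2, near Tk2 in GC content, had -0.28 and -0.67. With ratios centred within GC bins, Tfam stood at -1.62, Tfb1m at -1.33, Tfb2m at -0.84, Polrmt at -0.86 and Tk2 at 1.26. The part of abundance and base composition in the members' ratios was not tested. So few genes, with 1 library of each genotype, could not show it.

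**Figure D5:**
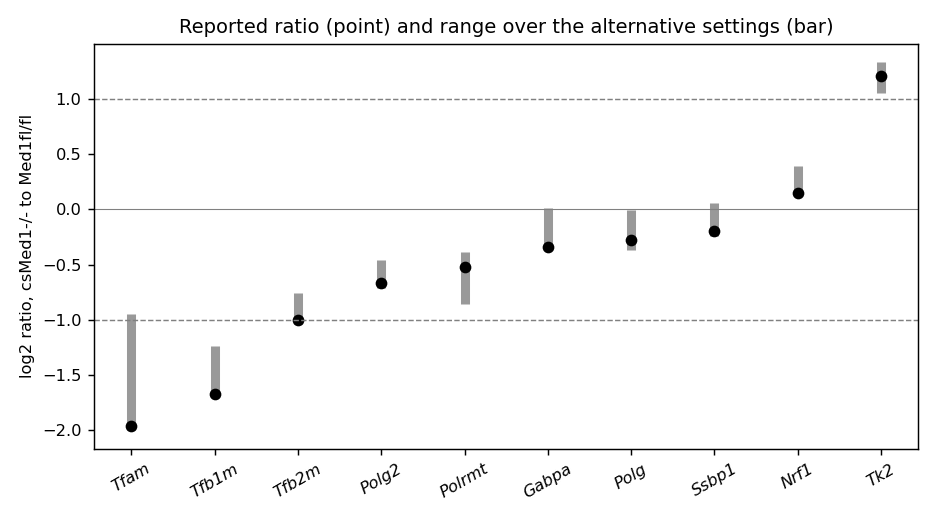
Range of each member's log2 ratio over the alternative treatments of the values (bars) and the value as reported (points), with lines at 2-fold. Tfb1m and Tk2 stay past 2-fold throughout, Tfam passes it in all but the pseudocount of 1, and the Tfb2m bar crosses the line.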

How the data were processed

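Heart RNA of 5 mice per genotype was pooled, and 1 library per genotype was sequenced as directional single-end reads of 50 nt. Per the methods, the authors used TopHat v2.0.8b for alignment to mm10. Cufflinks v2.1.1 and cuffdiff then gave FPKM for known UCSC genes, which the authors deposited. The submitters' processing notes also list STAR 2.4.0h and other tools without a role. The library scaling and the strand setting of the counting are not given in the sources used here.

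The deposited FPKM values were used as they stand. Entries sharing a symbol (412 symbols) were summed, and genes with no 0 in either library that reached 1 FPKM in at least 1 of them were compared by the plain ratio of csMed1-/- to Med1fl/fl, with a threshold of 2-fold. No test was made, since each genotype has 1 library. The members and the gene lists were chosen with earlier results of these data known. All members, Med1, and in each wider list the genes past 2-fold and those with the lowest and highest ratio are named, with Ppargc1a, Ppargc1b, Esrra and Esrrg. Slirp, Mterf2, Twnk, Gabpb1 and Gabpb2, and the neighbouring and near-identical genes, were named after their values were seen. The quotients between genes were not among the planned results.

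Older symbols were matched through RefSeq synonyms, so that Mgme1 and Tefm were read from their older clone names. None of the 15 symbols of mitochondrial DNA was found, Fastkd5 and Tymp stand only on joint entries, and none of these was used. Gene positions, transcript length and GC content came from GENCODE M21 (GRCm38, the same build as mm10), promoters from RefSeq, and near-identical sequence from BLAST 2.17.0 (at least 95% identity over 50 bases). Depth was estimated from the smallest steps of FPKM multiplied by transcript length, over 804 low genes in Med1fl/fl and 869 in csMed1-/-. It gives counting precision only.

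Alternatives were pseudocounts of 0.1 and 1, 3 other scalings, entries kept apart, 3 other filters and a threshold of 1.5-fold. Centring within 10 bins of GC content, length or abundance was added after the data were seen. Values were computed in Python 3.11.15 (pandas 2.3.3, numpy 2.4.6) and plotted with matplotlib 3.10.9, with correlations from scipy 1.17.1. The computation was also run on simulated data, with changes well past the threshold and without genes of low Med1fl/fl FPKM. That run does not show how calls near 2-fold or at low FPKM behave.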

Additional observations from a re-analysis of the deposited data

How the results depend on the processing

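No paired analysis was possible because each genotype has 1 library, and for the same reason no library could be left out. The number of members more than 2-fold lower was 3. Over 13 alternatives it was 2 in 7, 3 in 3 and 4 in 1 (the 1.5-fold threshold), and it was 1 (Tfb1m) with a pseudocount of 1 and 0 with a filter of 10 FPKM in either library, which leaves 3 members. The median log2 ratio of the members, -0.52, was -0.49 with a pseudocount of 1, -0.45 with median centring, -0.56 with scaling to the 75th percentile, -0.39 with equal library totals, -0.43 with no filter, -0.40 with 1 FPKM required in both libraries, -0.28 with 10 FPKM in either, -0.62 in GC bins, -0.43 in length bins and -0.46 in abundance bins. Scaling to equal library totals moved the median of all genes from -0.07 to 0.05 and turned the excess of lower genes round (1629 lower, 1677 higher). Tfam was -0.95 with a pseudocount of 1. Tfb2m was -0.97 and -0.76 with pseudocounts of 0.1 and 1, -0.93 with median centring, -0.88 with equal library totals, -0.98 in length bins and -0.79 in abundance bins. The cause of these shifts was not tested. Over all genes, 1886 were lower and 1423 higher. These counts were 3182 and 2504 with no filter, 885 and 821 with 10 FPKM in either library, and 3120 and 2488 at 1.5-fold. Of the list counts, the lower nucleoid genes went from 5 to 3 with a pseudocount of 1 or 1 FPKM in both and to 2 with 10 FPKM in either, the lower elongation genes from 3 to 5 with no filter and to 1 with 10 FPKM in either, the lower RNA processing genes from 8 to 13 at 1.5-fold, and the lower regulators from 4 to 2 with 10 FPKM in either. The higher genes of the RNA processing, deoxynucleotide and regulator lists moved by 1 at most. Tfam rests on a csMed1-/- value below 1 FPKM, so its fold depends most on the treatment of low values.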

Other observations

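The short cores searched in the members' promoters were also counted over the 8220 compared genes that have a RefSeq promoter entry. Genes with the half-site AAGGTCA of the estrogen-related receptors had a median log2 ratio of -0.33 and 26.9% of them were more than 2-fold lower in csMed1-/-, against a median of -0.06 and 17.2% for genes without it. None of the 10 members holds this half-site. Genes with the GABP/ETS core CCGGAAG had a median of 0.00 and 10.9% lower, against -0.10 and 19.2% without it. Genes with the NRF1 core GCGCANGCG had a median of -0.12 and 15.1% lower, against -0.06 and 18.0%. The lower share was also smaller with than without the Sp1 box GGGCGG (15.8% against 21.6%, medians -0.05 and -0.16) and the YY1 core AAGATGGC (12.3% against 17.9%, medians -0.06 and -0.07). These are descriptions of 2 libraries, and none of the differences was tested.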
